A study of Homo sapiens with 6 samples.

Results

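Connexins and pannexins were followed in RNA-seq of the human cell line MDA-MB-231, which derives from a triple-negative breast cancer. Of 7 genes sought by symbol (GJA1, GJA3, GJB2, GJB5, GJC1, PANX1 and PANX2), 5 were found among the 15706 genes of the deposited table, and GJB5 and GJC1 were not among the rows used here. GJA1 was chosen by its measured fold change, the largest increase in an earlier look at the same 6 libraries. Its difference between the groups is therefore a description, and its intervals and its place in any count of calls are read as no test. The other members were chosen as its relatives. The comparison set 3 control libraries, which carried a non-targeting guide RNA (sgNT, genotype wild type), against 3 libraries with a guide against MLL3 (sgMLL3, genotype MLL3 knockout). MLL3, approved symbol KMT2C, is a histone H3 lysine 4 methyltransferase of enhancers. All cells were untreated, and knockout below means so labelled. The labels name biological replicates 1 to 3 in each group, numbered #1 to #3 after sgNT or sgMLL3. They do not say whether these numbers stand for different guides, or whether the cells were clones or pools. The p-values therefore measure only the spread between these libraries.

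Connexins are membrane proteins that assemble into hexameric hemichannels, and hemichannels of neighbouring cells dock to form gap junctions, through which ions and small metabolites pass. GJA1 encodes connexin 43, the most widely expressed connexin, GJB2 encodes connexin 26, a connexin of epithelia, and GJA3 encodes connexin 46, best known from the lens. Pannexins have a similar fold but do not usually form gap junctions, and PANX1 forms a channel that releases ATP from the cell. In breast tissue connexin 43 is typical of myoepithelial cells and connexin 26 of luminal cells.

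Sequence upstream of GJA1 and GJB2 is shown because GJA1, the member with the largest difference, and GJB2, the most abundant connexin among the members, differed widely in base composition. The windows searched were the 250 bases before the RefSeq transcription start on GRCh38.p14. GENCODE 29 starts both genes farther upstream, so the last 69 bases of the GJA1 window and the last 72 of the GJB2 window lie inside the GENCODE gene, and only the 181 and 178 bases before it are printed, 5′ to 3′ on the gene's strand. Capitals mark matches to TGANTCA, the AP-1 motif (its own reverse complement), and GGGCGG, the GC box, searched on both strands. RefSeq promoters were matched for 4 of the 7 members.
GJA1, chr6:121435396-121435576, plus strand: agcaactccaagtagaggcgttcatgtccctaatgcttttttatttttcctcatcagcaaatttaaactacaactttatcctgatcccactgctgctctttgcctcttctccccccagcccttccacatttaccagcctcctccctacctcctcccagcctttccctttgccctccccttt
GJB2, chr13:20193011-20193188, minus strand: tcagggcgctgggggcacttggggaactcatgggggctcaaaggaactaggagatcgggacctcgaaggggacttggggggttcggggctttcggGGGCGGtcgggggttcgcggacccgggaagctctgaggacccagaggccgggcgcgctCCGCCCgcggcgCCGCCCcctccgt
The whole GJA1 window held 48.0% G and C and 1 CpG, against medians of 58% and 11 over 35116 promoters, and no GC box. Its 1 TGANTCA match began 48 bases before the RefSeq start, inside the GENCODE gene, so the printed stretch has no capitals. The whole GJB2 window held 70.0% G and C, 25 CpGs and 3 GC box matches, all in the printed stretch. TGANTCA occurred in 6.6% of all promoter windows and the GC box in 42.6%. A match describes letters only, and no binding was measured.

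The libraries held 41240265 to 49514464 recovered reads in the listed genes. Levels are normalized counts, which are reads divided by 1 size factor per library. KMT2C itself was read at 1367, 1379 and 1255 in the control and 1519, 1659.9 and 1339 in the knockout libraries (log2 fold change 0.17, SE 0.10, limma adjusted p = 0.205 and -0.04 after trend removal), so its transcript was not lower in the knockout libraries and gave no check of the label. Its protein is not analysed here. Across 14598 genes the log2 fold change followed GC content with a Spearman's rho of -0.673 (genes are not independent replicates), so fold changes are also given after removal of the trend along GC content and transcript length. On the second principal component control replicate 1 stood at 34.9 and the other libraries between -15.1 and -2. Of the basal line markers all 7 were measured, with VIM at 20717.9 to 24496.6 normalized counts, and of the 9 luminal and hormone receptor markers ESR1, PGR and FOXA1 were not among the rows and CDH1 stood at 2.1 to 7.5. Other luminal markers were abundant, with KRT8 at 45859.1 to 55702.1, above VIM, KRT18 at 13236 to 16294.5 and ERBB2 at 4581.4 to 6015.9, while EPCAM stood at 765 to 999.3 and GATA3 at 425.7 to 674.2.

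GJA1 was read at 86.2, 36.5 and 30.9 normalized counts in control replicates 1, 2 and 3, and at 175, 133 and 136 in knockout replicates 1, 2 and 3. The groups did not overlap, and control replicate 1 stood between the other controls and the knockouts. The ratio of the group means was 2.89. The log2 fold change, which is the difference between the group means of log2(count + 1) and so another measure, was 1.65 (SE 0.31). The authors' deposited table gives it a log2 fold change of 1.54. GJA1 (ENSG00000152661.9, chromosome 6, 121435577 to 121449727 on GRCh38, plus strand) led a ranking of 2560 genes by log2 fold change. Ranked were higher genes with a limma adjusted p below 0.05, groups that did not overlap and a mean of at least 50. GJA1 stood at 1.65 against 1.62 for the next, GRAMD1B, a gap smaller than the SE of 0.31, so the first place is not firm. The levels of GJA1 are the values that chose it. GENCODE 29 names 1 processed pseudogene of GJA1, GJA1P1, so some of its reads could be split between the copies.

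The read numbers behind GJA1 were small. Its recovered reads were 80, 34 and 32 in the control and 166, 150 and 148 in the knockout libraries. Exact Poisson 95% intervals, which cover counting error only, ran from 68.3 to 107 normalized counts in control replicate 1, from 25.3 to 51.0 in replicate 2 and from 21.1 to 43.6 in replicate 3. The interval of control replicate 1 thus did not reach those of the other controls, and the lowest bound among the knockout libraries was 113. The SD of the log2 levels was 0.78 in the control group, above 97.9% of the 1906 genes with a mean of 50 to 200, and 0.22 in the knockout group, above 53.3% of them. With control replicate 1 left out the log2 fold change was 2.10, and without control replicate 3 it was 1.37, the ends of the range over 6 such fits.

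Removing the trend lowered the GJA1 difference to 1.31 (SE 0.31). Its log2 levels were then 6.54, 5.38 and 5.26 in the control and 7.21, 6.89 and 7.01 in the knockout libraries, so the groups still did not overlap. With the trend removed and 1 library left out, the log2 fold change ranged from 1.08 (without control replicate 3) to 1.72 (without control replicate 1). In bulk RNA, a change in the number of cells that express GJA1 and a change in the RNA per cell cannot be told apart. Fibroblasts express connexin 43. Of 6 fibroblast markers 3 were listed, PDGFRB, COL3A1 and COL1A2, and PDGFRA, DCN and LUM were not among the rows used here. The summed level of the listed markers was 1404.7 to 1517.5 in the control and lower, 810.0 to 828.2, in the knockout libraries. Of these markers COL3A1 overlapped between the groups, at 45.2 to 71.5 in the control and 49.5 to 54.9 in the knockout libraries. Summed leukocyte markers (4 of 6 listed) ran from 570.9 to 905.1 in the control and, lower, from 435.1 to 555.1 in the knockout libraries. Taken singly, PTPRC, CD3E, CD14 and ITGAM each overlapped between the groups. CD14 in control replicate 1, at 193.9, lay below all knockout libraries (196.7 to 222). Summed endothelial markers (3 of 5, without CDH5 and TIE1) ran from 222.3 to 291.9 and, lower, from 165.7 to 207.4. Of these PECAM1 overlapped, at 50.5 to 94.7 in the control and 43.4 to 89.9 in the knockout libraries, and VWF and KDR did not. The part of these markers in the results was not tested.

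**Figure D1:**
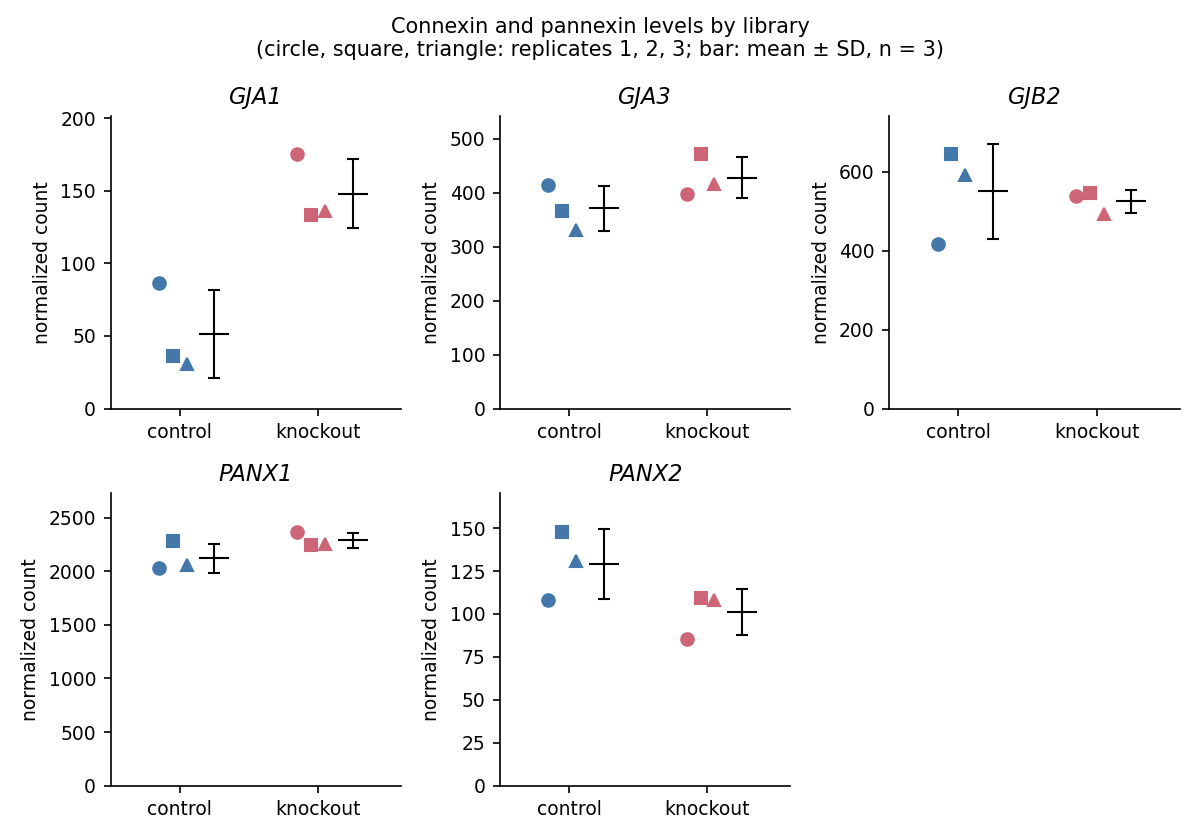
Normalized counts of the 5 members in each library (y axis, from 0), with control and knockout libraries on the x axis and the mean ± SD (n = 3) beside the points. GJA1 lies between 30.9 and 86.2 in the control and between 133 and 175 in the knockout libraries, and the groups of GJA3, GJB2, PANX1 and PANX2 overlap.

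GJB2 (ENSG00000165474.8, chromosome 13, 20187463 to 20193010, minus strand) was read at 416, 644 and 591 in the control and 538, 547 and 492 in the knockout libraries. The knockout values lay inside the range of the controls. The log2 fold change was -0.04 (SE 0.15, 95% interval -0.35 to 0.26, limma adjusted p = 0.841). Control replicate 1, the highest control for GJA1, was the lowest control for GJB2. Without that library GJB2 stood at -0.23 as deposited, which did not pass, and at -0.32 after trend removal, which passed. All 6 libraries gave -0.11 after trend removal (adjusted p = 0.69).

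GJA3 (ENSG00000121743.4, chromosome 13, 20138255 to 20161049, minus strand) was read at 415, 367 and 331 in the control and 397, 471 and 416 in the knockout libraries. The groups overlapped, and the log2 fold change of 0.21 (SE 0.13, interval -0.08 to 0.49, limma adjusted p = 0.247) did not pass, nor did the 0.13 left after trend removal (SE 0.11, adjusted p = 0.521). GJA3 and GJB2 are neighbours on chromosome 13, 26.4 kb apart and on the same strand. As deposited, the interval of GJA3 allows an increase of up to 0.49 on the log2 scale, so a change smaller than that is not excluded.

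PANX1 (ENSG00000110218.9, chromosome 11, 94128928 to 94181972, plus strand), the ATP release channel, was the most abundant member. It was read at 2026, 2279 and 2054 in the control and 2370.4, 2241 and 2257 in the knockout libraries. Control replicate 2 lay within the range of the knockout libraries. The log2 fold change was 0.11 (SE 0.088, interval -0.07 to 0.30, limma adjusted p = 0.34), and 0.14 after trend removal (SE 0.066, interval 0.0 to 0.29, adjusted p = 0.191).

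PANX2 (ENSG00000073150.14, chromosome 22, 50170731 to 50180294, plus strand), a pannexin best known from the brain, was read at 108, 148 and 131 in the control and 85.6, 109 and 108 in the knockout libraries. The groups overlapped only through control replicate 1. The log2 fold change of -0.35 (SE 0.21, interval -0.78 to 0.08, limma adjusted p = 0.20) did not pass, and trend removal gave -0.12 (SE 0.18, adjusted p = 0.727). At 66.3%, its transcript was the richest in G and C among the members, and that of GJA1, at 40.6%, the poorest.

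**Figure D2:**
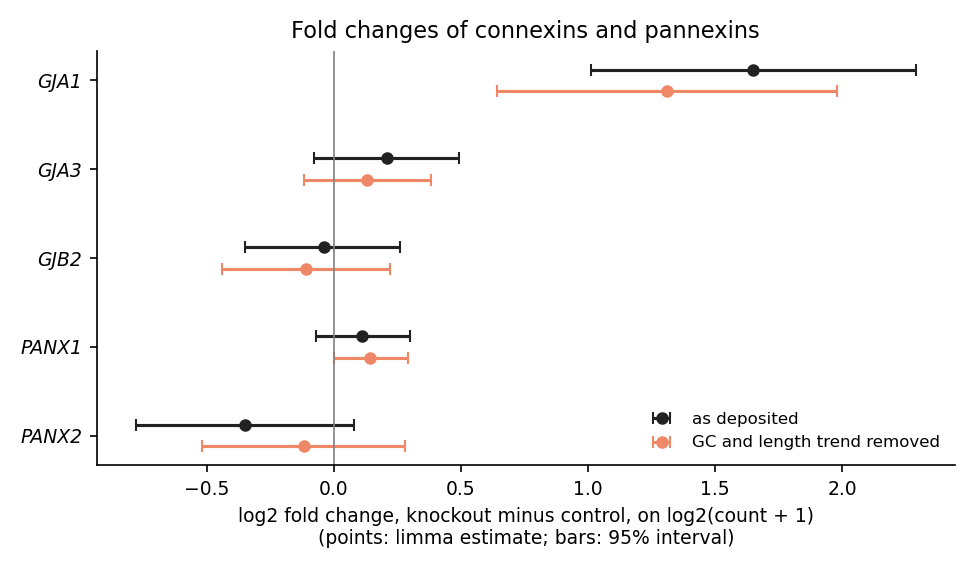
Log2 fold change of each gene, knockout minus control (x axis, log2 of count + 1), as deposited and with the GC and length trend removed, with 95% limma intervals over 3 libraries a group. GJA1 stood at 1.65 and 1.31, where its intervals are a description only because it was chosen for this difference. The intervals of GJA3, GJB2 and PANX2 include 0 in both analyses. That of PANX1 includes 0 as deposited and runs from 0.0 to 0.29, at the edge, with the trend removed.

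All 5 members had a mean of at least 10 and so were in the fit. Of the 4 members other than GJA1, 0 were called higher and 0 lower, both as deposited and after trend removal. Of all 14618 genes tested, 18.9% were called higher and 14.4% lower as deposited, and trend removal left 4.08% and 5.95%. GJA1 was past the threshold in both analyses by the same fold change that chose it, from which nothing is read. The groups of these 4 members all overlapped, whereas those of 46.3% of all genes tested did not.

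**Figure D3:**
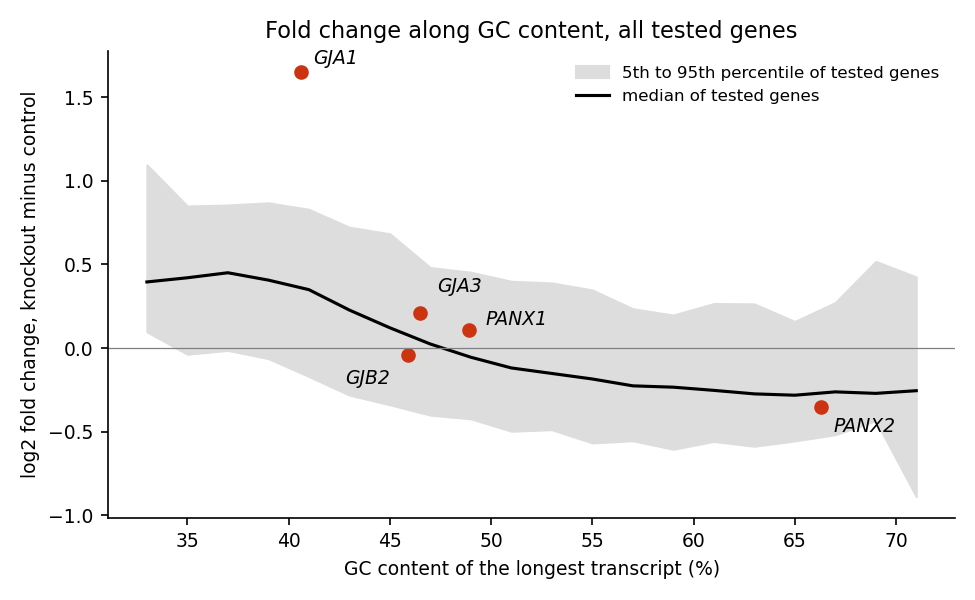
Log2 fold change (y axis) against the GC content of the longest transcript (x axis, percent): the line is the median and the band the 5th to 95th percentile of tested genes in bins of GC content, and points are the named connexins and pannexins. The median falls from 0.45 in the bin that starts at 36% to -0.282 in the bin that starts at 64%, and GJA1, at 40.6% and 1.65, lies above the band.

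GJD3, which encodes a further connexin and is no member, was read at 61.3 to 87.2 normalized counts over the 6 libraries and did not pass. Its GENCODE 29 transcript, of 885 bases, is hardly longer than its coding sequence of 882, so its 85.4 ± 1.80 (control) and 84.9 ± 14.8 (knockout) normalized counts per kb of transcript (SD, n = 3) were not set in the order of the members below.

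Levels of different genes were compared per kilobase of the longest transcript. In the control libraries PANX1 stood highest at 765 ± 50.1 normalized counts per kb (SD, n = 3), followed by GJB2 at 233 ± 50.6, GJA3 at 71.2 ± 8.03, PANX2 at 42.3 ± 6.67 and GJA1 at 16.2 ± 9.65. In the knockout libraries the order was PANX1 at 827 ± 25.4, GJB2 at 222 ± 12.5, GJA3 at 82.1 ± 7.33, GJA1 at 47.0 ± 7.52 and PANX2 at 33.1 ± 4.37. Neighbours in either order did not overlap, so GJA1 stood below PANX2 in the control and above it in the knockout libraries. Per kilobase of coding sequence the means of GJA1 and PANX2 had the same order in the control libraries, 44.7 against 63.6, but their ranges overlapped. On that scale GJA1 in the knockout libraries, at 129 ± 20.7, still stood above PANX2, at 49.7 ± 6.56. GJD3, at 85.7 ± 1.81 in the control and 85.2 ± 14.8 in the knockout libraries per coding kb, lay above GJA1 in the former and below it in the latter, without overlap. The shift of GJA1 in these orders restates the levels that chose it and is a description.

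Within the summed per-kilobase level of the 3 connexins GJA1, GJA3 and GJB2, GJA1 took 9.66%, 3.26% and 3.03% in control replicates 1, 2 and 3. In the knockout replicates it took 15.5%, 11.6% and 13%. These are not all the connexins read. Per kilobase of coding sequence and with GJD3 added, a sum chosen after the data were seen, GJA1 took 6.89%, 2.36% and 2.17% in the control and 11.6%, 8.46% and 9.4% in the knockout replicates, again without overlap. The sum of the 3 ran from 283 to 355 in the control and from 331 to 364 in the knockout libraries, so the totals overlapped while the GJA1 share did not. GJB2 held the largest share in every library, 62.2% to 77.3% in the control and 62.9% to 63.6% in the knockout libraries. The per-kilobase level of GJB2 was 6.44, 23.5 and 25.5 times that of GJA1 in control replicates 1, 2 and 3, and 4.09, 5.49 and 4.83 times in the knockout replicates. Control replicate 1 was nearer to the knockout libraries than to the other controls in this ratio. The shares and ratios of GJA1 restate the levels that chose it, so their separation between the groups is a description.

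The 5 genes whose levels followed GJA1 most closely over the 6 libraries were GNAI3, METAP2, PUM3, PGM2 and CTR9. Their Pearson correlations with GJA1 on log2(count + 1) lay between 0.9979 and 0.999, a description over 6 libraries. Whether depth or base composition had a part in them was not tested. Of 12431 genes compared, 1688 had a correlation above 0.9. GNAI3, an inhibitory G protein subunit, was read at 9396, 7306 and 6767 in the control and 11765, 10963 and 10887 in the knockout libraries. As for GJA1, control replicate 1 was the highest control and knockout replicate 1 the highest knockout library. The log2 fold changes of the 5 genes ran from 0.44 (PGM2) to 0.64 (CTR9), below that of GJA1. After trend removal they were 0.14 for GNAI3, 0.19 for METAP2, 0.35 for PUM3, 0.08 for PGM2 and 0.47 for CTR9, of which PUM3 and CTR9 stayed past the threshold. The 5 genes were picked for following GJA1, itself chosen by its difference. Their rise, calls and replicate order follow from that choice and are read as no test. Their GC content ran from 39.9% to 44.5%, around the 40.6% of GJA1.

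Neighbours on the chromosome were chosen after the data were seen, as the 2 nearest tested genes on each side of a member with a mean of at least 50. Of the 16 neighbours that are not members, 7 were higher and 2 lower as deposited, where 18.9% and 14.4% of all genes were. After trend removal 1 was higher, SERINC1, and 1 lower, MCM9, where 4.08% and 5.95% of all genes were. These shares are over genes with a mean of at least 10. As deposited with a mean of at least 50, 2772 of 12454 genes were higher and 2185 lower. GJA1 lies in a stretch with few such genes. On one side were HSF2, a heat shock factor, 949.8 kb away, and SERINC1 at 993.6 kb, and on the other MAN1A1, a Golgi mannosidase, at 2085.8 kb and MCM9, a DNA repair helicase, at 2500.4 kb. SERINC1 rose by 0.81 (SE 0.091, limma adjusted p = 3.8e-05), and by 0.41 after trend removal (adjusted p = 0.0018). MAN1A1 rose by 0.76 (SE 0.18, adjusted p = 0.0049), and trend removal left 0.49 (adjusted p = 0.093). HSF2 did not pass (0.25, SE 0.11, adjusted p = 0.099, and -0.09 after trend removal) but passed without control replicate 1 (0.32, adjusted p = 0.02). MCM9 stood at 0.02 (adjusted p = 0.93) as deposited and at -0.43 after trend removal (adjusted p = 0.029).

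GJA3 lies 46.4 kb from ZMYM2, a zinc finger gene. ZMYM2 rose by 0.78 (limma SE 0.11 and adjusted p = 0.00011), and trend removal left 0.31 (adjusted p = 0.065). On the other side of the GJA3 and GJB2 pair, 210.7 kb from GJB2, CRYL1 fell by 0.30 (adjusted p = 0.048), with -0.25 after trend removal (adjusted p = 0.118). TRABD, 5.6 kb from PANX2, fell by 0.26 (adjusted p = 0.038), with -0.02 after trend removal (adjusted p = 0.865). The call of CRYL1 was lost when any library other than knockout replicate 3 was left out (adjusted p = 0.053 to 0.19), and that of TRABD without control replicate 2 or 3 or knockout replicate 1 or 2 (0.084 to 0.19). No other gene of GENCODE 29 overlaps any of the 5 members.

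Connexin 43 is held at the membrane by the scaffold ZO-1, is phosphorylated by protein kinase C and MAP kinases, and is removed through ubiquitin ligases and endosomal sorting. Of 48 listed partners and regulators, 47 were tested, and 14 were higher and 8 lower. That is 46.8% called, against 33.2% of all genes. Genes with a mean of at least 50 were called more often, 2772 of 12454 higher and 2185 lower. In that fit 14 of 45 partners were higher and 9 lower. The median log2 fold change of the list was 0.01, against -0.017 over all genes tested. After trend removal 3 were higher and 2 lower, 10.6% against 10.0% of all genes, and the median was -0.036. Of the list, 4 genes were called in both analyses. Without knockout replicate 1 the list counted 7 higher and 0 lower, and the lower count was 2 without knockout replicate 2 and 3 without control replicate 3.

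Among the partners that rose, USP8, a deubiquitinase of endosomes, went from 775 ± 102 (SD, 3 control libraries) to 1317 ± 39.5 normalized counts. Its log2 fold change was 0.77 (SE 0.11, limma adjusted p = 0.0001), and 0.33 after trend removal (adjusted p = 0.033). The desmosomal plaque protein gene DSP rose by 0.42 (SE 0.083, adjusted p = 0.0013), and by 0.36 after trend removal (adjusted p = 0.0038). SMURF2, a ubiquitin ligase, rose by 0.41 (adjusted p = 0.00073) and PTPN2, a tyrosine phosphatase, by 0.50 (adjusted p = 0.0011). Trend removal left -0.001 and 0.13, which did not pass. TJP3, which encodes the tight junction scaffold ZO-3 and was chosen after its values were seen, rose from 82.6 ± 9.79 to 130.3 ± 19.4 (0.65, SE 0.21, adjusted p = 0.025), and by 0.88 after trend removal (adjusted p = 0.015). As deposited TJP3 lost its call without control replicate 3 (adjusted p = 0.057), knockout replicate 1 (0.083) or knockout replicate 3 (0.093).

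Among the partners that fell, PRKCA, the protein kinase C isoform alpha, went from 5877 ± 414 (SD, 3 control libraries) to 4673 ± 295 normalized counts. Its log2 fold change was -0.33 (SE 0.085, limma adjusted p = 0.0075). After trend removal it was -0.39 (adjusted p = 0.0034), and it was -0.28 without knockout replicate 1 (adjusted p = 0.055). AKT1, a survival kinase (-0.33, adjusted p = 0.0076), MAPK3, which encodes ERK1 (-0.32, adjusted p = 0.012), and HGS, an endosomal sorting protein (-0.32, adjusted p = 0.014), fell as deposited. Trend removal left AKT1, MAPK3 and HGS at -0.14, -0.08 and -0.08, and none of the 3 passed. Without knockout replicate 1 these 3 genes lost their calls also as deposited (adjusted p = 0.059, 0.07 and 0.094), and MAPK3 and HGS lost them without knockout replicate 2 (0.059 and 0.074) or control replicate 3 (0.059 and 0.053).

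Pannexin channels release ATP, which acts on P2X and P2Y receptors and is broken down to adenosine by ectoenzymes. Other large-pore channels, the CALHM and LRRC8 families, carry ATP or organic ions. Of 37 listed genes of this kind 26 were among the rows and 24 were tested, of which 4 were higher and 6 lower, or 41.7% called against 33.2% of all genes. In the fit of genes with a mean of at least 50, 4 of 20 listed genes were higher and 7 lower, where 2772 and 2185 of all 12454 were. The median of the 24 genes was -0.027. After trend removal 0 were higher and 3 lower, 12.5% against 10.0%, and the median was -0.017. The higher count was 1 without knockout replicate 1 and 2 without knockout replicate 2 or control replicate 3, and the lower count 3 without knockout replicate 1.

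The 3 genes called in both analyses were all lower. CALHM3, a channel subunit of taste cells, was read at 102, 116 and 131 in the control and at 46.5, 46.1 and 66.1 in the knockout libraries, without overlap. It fell by 1.14 on the log2 scale (SE 0.24, limma adjusted p = 0.0019), with -0.88 after trend removal (adjusted p = 0.021). CALHM2, its neighbour in the family, fell from 2102 ± 128 to 1406 ± 116 (-0.58, SE 0.096, adjusted p = 0.00033), with -0.34 after trend removal (adjusted p = 0.011). P2RY2, a receptor for ATP and UTP, fell from 832 ± 66.9 to 522 ± 89.5 (-0.68, SE 0.13, adjusted p = 0.00095), with -0.46 after trend removal (adjusted p = 0.017).

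P2RY6, a receptor for UDP, was read at 163, 80.5 and 85.0 in the control and 31.7, 51.4 and 58.7 in the knockout libraries. It fell by 1.16 (SE 0.30, limma adjusted p = 0.0078), did not pass after trend removal (-0.96, adjusted p = 0.078) and lost its call without knockout replicate 1 (-0.90, adjusted p = 0.059). Control replicate 1 was again the highest control, here farther from the knockout libraries. LRRC8B (0.85, adjusted p = 0.0048) and LRRC8C (0.47, adjusted p = 0.006), subunits of volume-regulated anion channels, rose as deposited, as did NT5E, which makes adenosine from AMP (0.27, adjusted p = 0.019), and ENPP1, which cleaves ATP (0.35, adjusted p = 0.02). After trend removal these 4 stood at 0.42, 0.03, 0.14 and 0.02 and did not pass. As deposited, LRRC8C, NT5E and ENPP1 lost their calls without knockout replicate 1 (adjusted p = 0.053, 0.10 and 0.10), and NT5E and ENPP1 without knockout replicate 2 (0.092 and 0.081) or control replicate 3 (0.086 and 0.097).

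**Figure D4:**
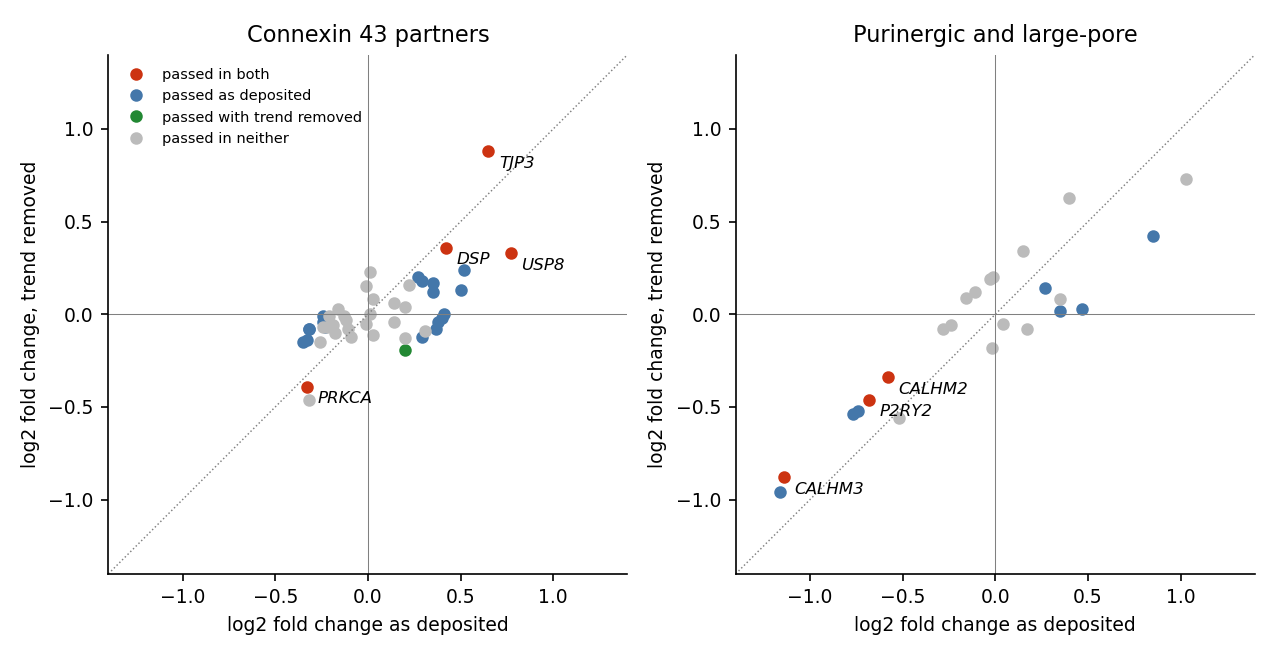
Log2 fold change, knockout minus control, as deposited (x axis) and with the GC and length trend removed (y axis) for 47 connexin 43 partners and regulators (left) and 24 purinergic and large-pore channel genes (right), coloured by the analysis in which they passed. Genes that passed in both are named, 4 on the left and 3 on the right, and the dotted line marks equal values.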

How the data were processed

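Human MDA-MB-231 cells were sequenced in 6 libraries, 3 a group. FastQC, STAR 2.4.0, featureCounts 1.5.0, DESeq2 1.30.1 and GRCh38.p13 are named in the submitters' processing notes, and the annotation, strand setting and filters were not stated there. For each gene and library the authors deposited a normalized read count, a signal made by dividing reads by 1 size factor per library, with their mean. Per the file headers the authors also give a log2 fold change with its error, a Wald statistic as a score, and a p-value and adjusted p-value. All 15706 genes had at least 1 read in every library, so genes without reads in a library are not covered. After division by the value of 1 read, 100% of values lay within 0.01 of a whole number.

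Genes with a mean of at least 10 (14618) were tested on log2(value + 1) in limma 3.58.1 under R 4.3.3, allowing the variance to follow the mean, two-sided, with Benjamini-Hochberg adjustment over all of them at 0.05. The added 1 lowers the size of fold changes of low genes. For GJA1 the estimate of 1.65 was nonetheless above the 1.53 of edgeR and the 1.54 of DESeq2 on recovered reads. For trend removal, natural splines with 5 terms each of GC percent and log2 length of the longest transcript (GENCODE 29, 15681 genes matched) were fitted per library to gene-centred values and subtracted, leaving 14598 genes. The members, lists and tests were chosen with earlier results of these data known. Named were all members, KMT2C, up to 4 genes per direction of the partner and the purinergic list with the smallest adjusted p, and the 5 genes most correlated with GJA1 with a mean of at least 50. Others are said to be chosen later. Some listed genes are not reported here. Alternatives were other pseudocounts and filters, quantile normalization, edgeR 4.0.16 and DESeq2 1.42.0 on recovered reads, a replicate block and leaving out each library. The scripts were tested on simulated data.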

Additional observations from a re-analysis of the deposited data

How the results depend on the processing

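GJA1 rested on 32 to 166 reads per library, which limits its precision. Counts that moved by over 1.5 times did so with the trend removed, under the replicate block or without a library. Under trend removal 595 genes were higher and 868 lower, with 3 partners higher and 2 lower and 0 purinergic genes higher and 3 lower. With the replicate block added to trend removal these were 540 and 773, 4 and 1, and 0 and 3. Same-numbered libraries deviated from their group means with correlations of 0.0658, 0.00629 and 0.129, and differently numbered ones with -0.0994 to 0.0272. These small values do not settle whether the numbers pair the libraries. With the replicate block alone 3241 genes were higher and 3024 lower, against 2760 and 2099 without it. Under that block 15 partners were lower and HSF2 passed (0.25, limma adjusted p = 0.034). Leaving out a library gave 1587 to 3300 genes higher and 556 to 2868 lower, 7 to 16 partners higher and 0 to 10 lower, 1 to 4 purinergic genes higher and 3 to 7 lower, and 1 member higher. With the trend removed, an alternative added after seeing the data, the members counted 0 to 1 higher (GJA1, kept only without control replicate 1) and 0 to 1 lower (GJB2, without control replicate 1).

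Of the single-gene values, 16 changed sign, all of GJB2, KMT2C, SMURF2, HSF2 or MCM9. Leaving out a library moved GJB2 from -0.23 to 0.082 and MCM9 from -0.044 to 0.077. GJB2 stood at 0.082 without control replicate 2, 0.02 without control replicate 3 and 0.003 without knockout replicate 3, and at 0.01 with the trend removed and control replicate 2 left out. With the trend removed, with or without the replicate block, KMT2C stood at -0.039, SMURF2 at -0.001, HSF2 at -0.089 and MCM9 at -0.43, and under quantile normalization MCM9 stood at -0.071. The cause was not tested.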
